A study of Mus musculus with 56 samples.

Results

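KLF transcription factors are nuclear proteins that bind GC-rich and CACCC-type DNA elements through a conserved set of zinc fingers at their C-terminal end. Transcripts of 9 of them, Klf2, Klf3, Klf4, Klf6, Klf9, Klf10, Klf11, Klf13 and Klf15, were followed in mouse visceral adipose tissue (VAT). They were taken by symbol, as the rows of the expression table whose Ensembl identifiers carry these names, so that 9 of the 25939 genes in the table are described. All 56 libraries were used. Each came from a 9-week-old female C57BL/6J mouse fed for 7 days either only by day (daytime-restricted feeding, DRF) or only by night (nighttime-restricted feeding, NRF, the reference), after 7 days of acclimation on food ad libitum. Both groups were kept in 12 h of light and 12 h of darkness, so DRF moved the food but not the light. VAT was collected at zeitgeber time (ZT, hours from lights on) 0, 4, 8, 12, 16, 20 and 24, with 4 mice per time point and regimen, and ZT0 and ZT24 were separate groups. The mice carried no transgene or deletion, and whole tissue was used, so that fewer cells of a type and less RNA per cell cannot be told apart.

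Members of the family fall into groups by the partners they recruit. KLF3 binds the CtBP corepressors, KLF9, KLF10, KLF11 and KLF13 recruit SIN3A and histone deacetylases and mostly repress, KLF2, KLF4 and KLF6 are chiefly activators that work with acetyltransferases, and KLF15 stands outside these groups. In fat, KLF2 and KLF3 restrain adipocyte formation, KLF4 and KLF6 act early in it, KLF9 and KLF15 promote it, and KLF15 also drives genes of amino acid breakdown and the glucose transporter gene Slc2a4. Klf9, Klf13 and Klf15 are induced by glucocorticoids, and Klf10 and Klf11 were first described as early genes of TGF-beta signalling. Several of these genes have daily rhythms in other tissues.

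The promoters of 8 of the 9 members were found among the RefSeq promoter windows (GRCm38.p6, 250 bases before to 50 after the start site); Klf10 had no entry. The E-box CACGTG, the element bound by CLOCK and ARNTL, was present in the windows of Klf4, Klf6, Klf11 and Klf15, while 7.15% of the 32851 windows held it. The window of Klf15 held 3 E-boxes, starting 228, 172 and 3 bases before the start site, and that of Klf11 held 1, starting 214 bases before it. The FOXO site GTAAACA (or its reverse complement TGTTTAC), present in 3.65% of windows, occurred once in the window of Klf9. The D-box TTANGTAA, the cAMP response element TGACGTCA and the glucocorticoid half-site TGTTCT, each searched on both strands, were not found in the 8 windows. These letter matches are descriptions of sequence and not measured binding. The upstream bases of Klf9, Klf13, Klf15 and Klf11 are given here because these 4 genes had the largest rhythms under NRF below. The bases run 5′ to 3′ up to the base before the annotated gene start, with E-boxes and the FOXO site in capitals. For Klf11 the annotated gene starts upstream of the RefSeq start, so 153 bases are shown, and the third E-box of Klf15 spans its start and is not complete here.
Klf9, chr19:23140976-23141225, plus strand: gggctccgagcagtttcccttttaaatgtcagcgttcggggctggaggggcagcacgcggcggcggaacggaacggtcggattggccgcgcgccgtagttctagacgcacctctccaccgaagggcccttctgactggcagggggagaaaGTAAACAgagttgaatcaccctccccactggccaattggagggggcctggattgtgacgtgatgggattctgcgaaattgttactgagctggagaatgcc
Klf13, chr7:63938916-63939165, minus strand: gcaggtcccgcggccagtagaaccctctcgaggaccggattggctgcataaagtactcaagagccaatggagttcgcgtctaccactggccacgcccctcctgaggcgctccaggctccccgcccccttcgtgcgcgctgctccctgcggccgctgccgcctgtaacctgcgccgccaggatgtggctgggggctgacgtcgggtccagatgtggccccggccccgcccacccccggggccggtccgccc
Klf15, chr6:90462326-90462575, plus strand: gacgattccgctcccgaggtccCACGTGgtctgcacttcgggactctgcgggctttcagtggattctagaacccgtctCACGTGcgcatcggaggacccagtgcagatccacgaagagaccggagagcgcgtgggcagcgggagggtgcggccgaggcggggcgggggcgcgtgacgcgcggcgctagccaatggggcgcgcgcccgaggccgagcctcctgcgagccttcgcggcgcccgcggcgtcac
Klf11, chr12:24651121-24651273, plus strand: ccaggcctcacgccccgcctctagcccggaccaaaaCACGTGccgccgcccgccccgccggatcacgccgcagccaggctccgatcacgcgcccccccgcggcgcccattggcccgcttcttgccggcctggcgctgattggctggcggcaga

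Values are CPM, the reads of a gene divided by the effective library size that the deposited scores imply, computed from whole read numbers recovered from the scores that were deposited, and differences are on the scale log2(CPM + 1). Each library held 30422830 to 40347955 reads on genes. The effective size was 0.95 to 1.38 times these reads (median 1.09), and it was 1.38 and 1.21 times in DRF ZT8 replicate 1 and DRF ZT0 replicate 4. Klf11 was the least covered member, with 239 to 1363 reads per library, and the others had at least 810. Defining adipocyte genes were abundant in every library, with Adipoq at 1025 to 3770 CPM. In 2 DRF libraries, ZT8 replicate 1 and ZT0 replicate 4, the 7 measured reproductive tract epithelium markers (Epcam, Cdh1, Krt8, Krt18, Krt7, Cldn3 and Wfdc2) summed to 559 and 1309 CPM, against 17.4 to 89.7 CPM in the other 54 libraries, and the 6 adipocyte markers were at their lowest sums of all, 8747 and 13609 CPM. Epcam alone was 89.0 and 245 CPM in them, against at most 8.52 CPM elsewhere. Klf5, an epithelial family member outside the 9, reached 13.2 and 29.0 CPM there, against 0.692 to 3.73 CPM in the others. For the 9 members, values without them stand beside the results whose calls were lost or whose size moved by over 1.5 times. No values without them are given for the genes of the lists. In NRF ZT24 replicate 4 the 3 liver markers summed to 1509 CPM, against 12.9 to 71.3 CPM in the other 55 libraries. Without that library the NRF rhythm of Klf3 (adjusted p = 0.055) and the rhythm difference of Klf10 (adjusted p = 0.070) did not pass, and the counts of the other comparisons were the same. Between regimens, 3 of 5 macrophage markers, 3 of 5 mesothelial markers and 2 of 4 progenitor markers were lower under DRF and 4 of 4 haemoglobin genes were higher (limma), where 10.3% of all genes were lower and 11.4% higher. In rhythm, 4 of 4 haemoglobin genes and 5 of 6 adipocyte markers differed between regimens, and 3 of 4 and 4 of 6 were rhythmic under NRF, where 36.0% and 24.5% of all genes were called. Their part in the differences below was not tested.

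Per kilobase of exon, Klf2 stood highest over all 56 libraries, at 34.2 ± 8.17 CPM per kb (SD). Klf9 followed at 31.2 ± 9.68, Klf15 at 25.3 ± 8.56, Klf6 at 22.9 ± 3.89 and Klf4 at 16.6 ± 4.47 CPM per kb. Klf13 stood at 11.4 ± 3.01, Klf10 at 10.2 ± 3.57, Klf3 at 6.42 ± 0.874 and Klf11 at 3.57 ± 1.36 CPM per kb. Each neighbour in this order lay within 1 SD of the next, except Klf4 from Klf6, Klf13 from Klf4, Klf3 from Klf10 and Klf11 from Klf3, where the gap was larger than the SD of both genes. The per-kilobase level of Klf9 uses 3263 bases, the only exon length that gives whole reads from its deposited values, and not the 4815 bases of the annotation.

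**Figure D1:**
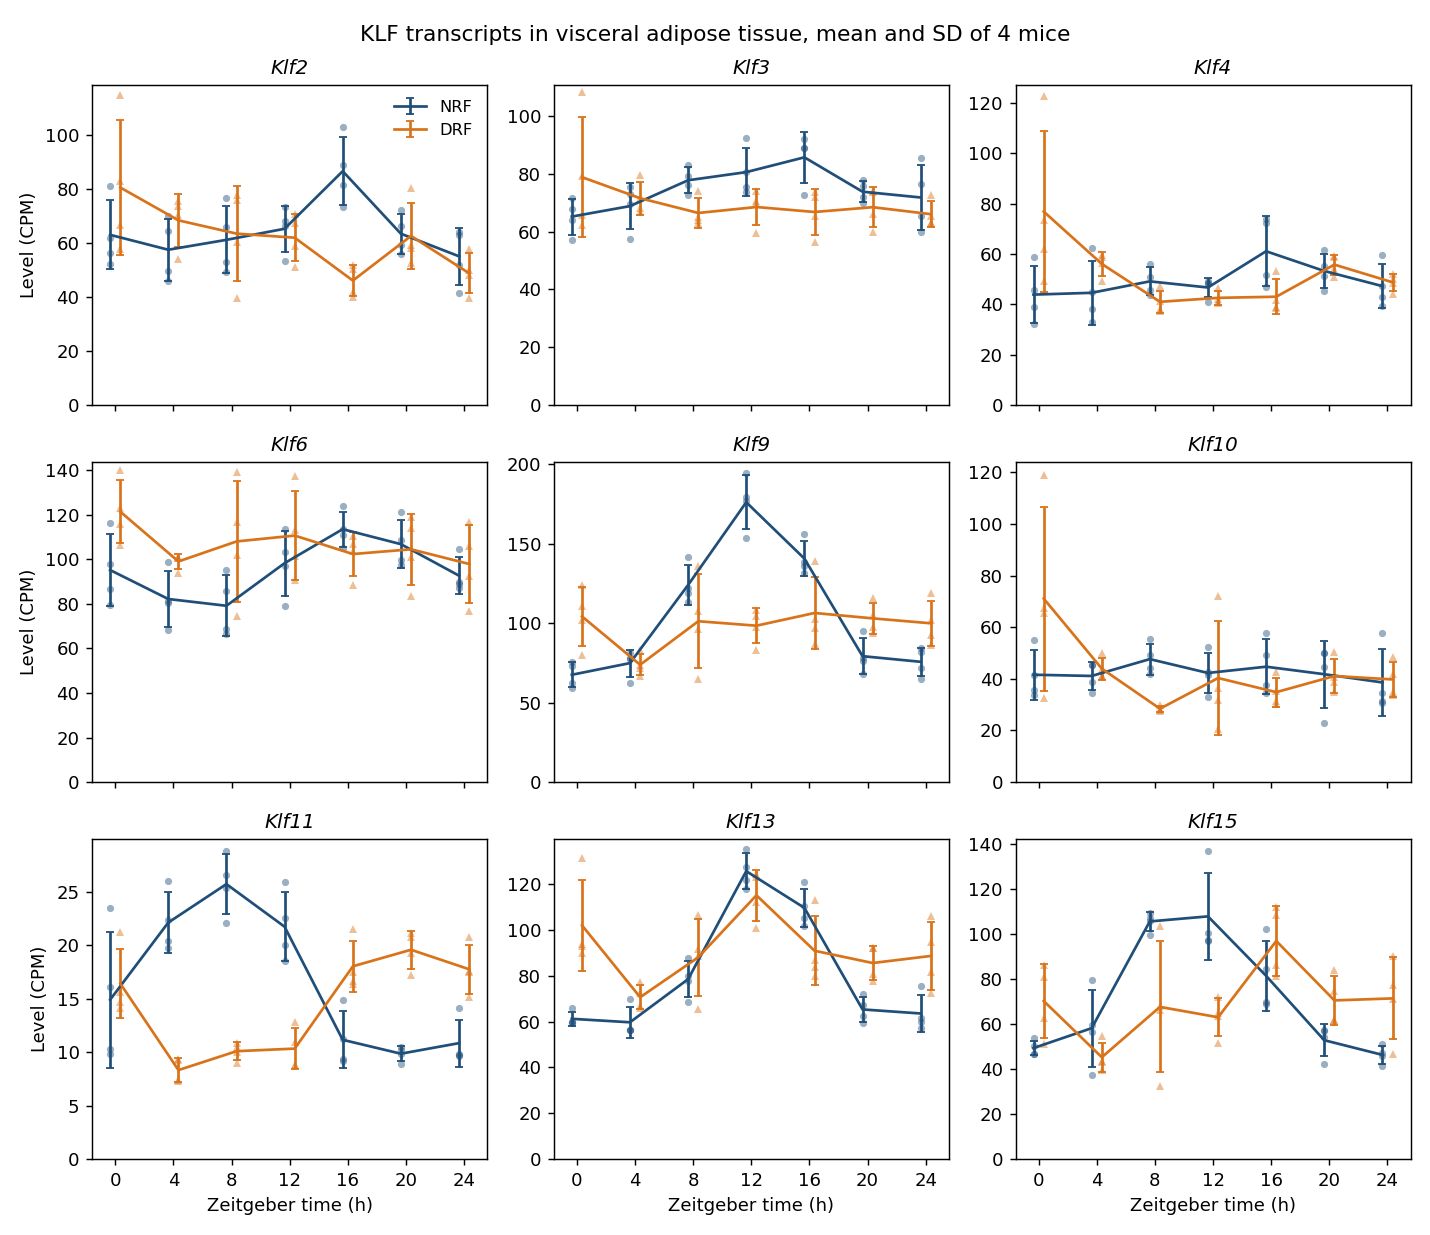
Level (CPM, axis from 0) of the 9 KLF transcripts in VAT against zeitgeber time (h) under NRF (blue circles) and DRF (orange triangles). Points are single mice, and lines with bars are the mean and SD of 4 mice. Klf11 peaks at ZT8 under NRF and at ZT20 under DRF. Klf9 is lower at ZT12 under DRF than under NRF, Klf13 is higher at ZT0, ZT20 and ZT24, and the highest Klf15 group is ZT12 under NRF and ZT16 under DRF.

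Daily rhythms were first tested within each regimen, to find which members cycle when food is given at the usual and at the inverted time. Under NRF, 6 of the 9 members had a 24-h rhythm (MetaCycle-type test, adjusted p under 0.05): Klf3, Klf6, Klf9, Klf11, Klf13 and Klf15, where 24.5% of all genes passed. Under DRF, Klf11 was the member that passed, where 12.9% of all genes did and 7.85% passed under both. A limma cosinor fit gave the same 6 members under NRF (33.7% of all genes) and called Klf4, Klf10, Klf11 and Klf15 under DRF (26.7% of all genes). The rhythm itself, meaning the 24-h cosine and sine tested jointly, differed between the regimens in 9 of 9 members (limma), against 36.0% of all genes. With 1 replicate number left out in both regimens, that test did not pass at least once for Klf2, Klf3, Klf6 and Klf10, and it passed each time for Klf4, Klf9, Klf11, Klf13 and Klf15. On the deposited values Klf3, Klf6 and Klf10 did not pass (adjusted p = 0.071, 0.093 and 0.069). The shares of all genes here and below include barely detected genes. A mean of at least 1 CPM was reached by 14300 genes, among them each of the 9 members, and the shares among those genes are not given. The members were also chosen with earlier results of these data known.

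Klf11, a SIN3A-recruiting repressor that also takes part in the brown fat programme, had the clearest response. It is a protein-coding gene at chr12:24651274-24662789 on the plus strand (GRCm38). Under NRF its levels at ZT8 were 26.6, 28.8, 22.1 and 25.3 CPM, and at ZT20 they were 10.5, 8.86, 9.86 and 10.2 CPM. Under DRF the order was turned: at ZT8 the levels were 10.9, 10.5, 8.99 and 9.98 CPM and at ZT20 they were 21.1, 19.2, 17.2 and 20.7 CPM. The groups of the regimens did not overlap at either time. The highest and lowest group means stood 2.61-fold apart under NRF (ZT8 and ZT20) and 2.35-fold apart under DRF (ZT20 and ZT4).

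The fitted peak of Klf11 was at ZT7.77 ± 0.36 (SE) under NRF and at ZT19.52 ± 0.43 under DRF. The shift of 11.75 ± 0.57 h passed the Wald test of the cosinor fit (adjusted p = 4.97e-23). A shift is given as a result for Klf11 because the other members did not pass the MetaCycle-type test under both regimens. Of the 2037 genes with a rhythm under both, 95.8% had a shift past the threshold and 54.9% a fitted shift of at least 10 h in size, so an inversion of this kind was common among them. The amplitude of Klf11 was 0.72 ± 0.07 under NRF and 0.60 ± 0.07 under DRF, a difference of -0.12 ± 0.11 that did not pass (adjusted p = 0.81). Its mean level over all times was lower under DRF by a log2 difference of -0.24 ± 0.07 (adjusted p = 0.0091, and 0.10 without replicate 3), or 16.6 ± 6.78 CPM under NRF and 14.4 ± 4.71 CPM under DRF (SD over 28 libraries).

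**Figure D2:**
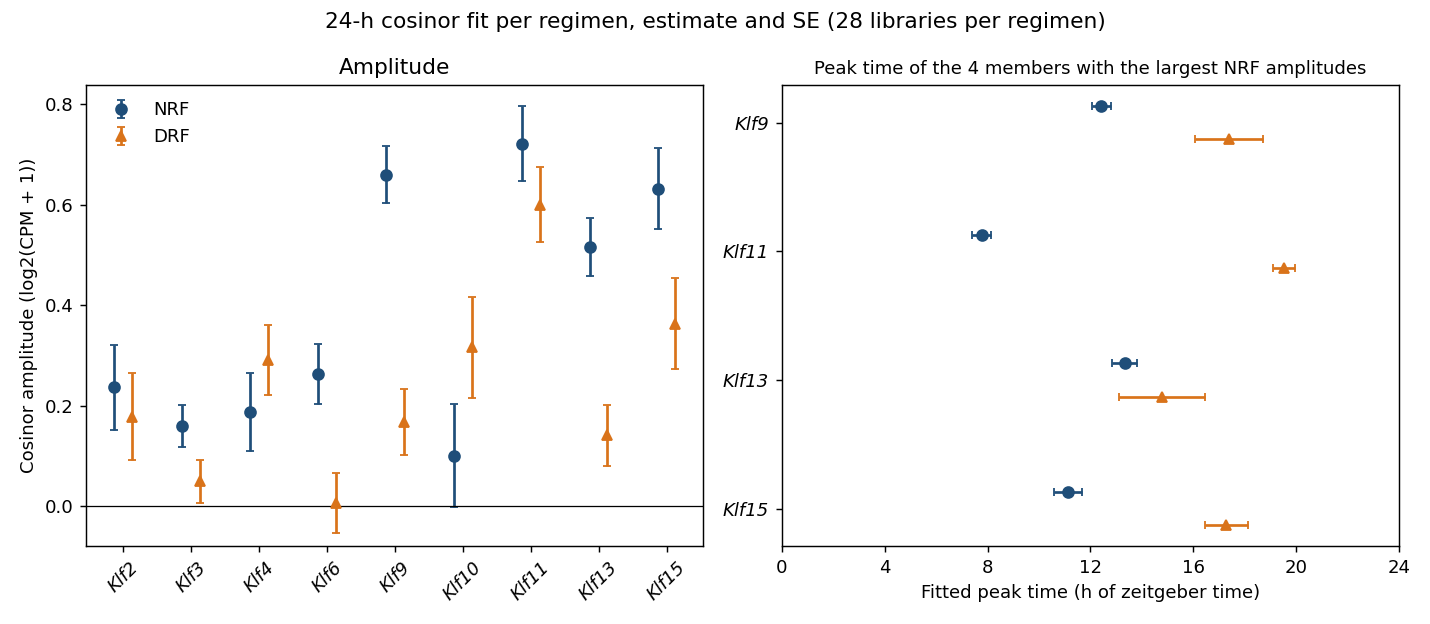
Left, amplitude (log2(CPM + 1)) of the 24-h cosinor fit under NRF (blue circles) and DRF (orange triangles) for the 9 members; right, fitted peak time (h of zeitgeber time) of the 4 members with the largest NRF amplitudes. Points are estimates and bars are SE, from 28 libraries per regimen. Klf11 has amplitudes of 0.72 and 0.60 and moves by 11.75 h, while Klf9 and Klf13 fall from 0.66 and 0.52 to 0.17 and 0.14.

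Klf9, a hormone-induced repressor located at chr19:23141226-23168134 on the plus strand, showed the strongest loss of rhythm. Under NRF its levels were 195, 177, 153 and 179 CPM at ZT12 and 73.0, 59.5, 75.3 and 62.3 CPM at ZT0, a 2.61-fold range between these group means. Under DRF the levels at ZT12 were 83.3, 104, 108 and 97.5 CPM, all below each NRF mouse, and those at ZT0 were 102, 124, 111 and 80.0 CPM, all above each NRF mouse. The amplitude fell by 0.49 ± 0.09 on the log2 scale (adjusted p = 0.00048), from 0.66 ± 0.06 to 0.17 ± 0.07. Without replicate 4 in both regimens the difference was -0.41 and did not pass (adjusted p = 0.065). Of all genes, 1.44% had an amplitude difference past the threshold (1.10% lower and 0.339% higher under DRF), and 2 of the 9 members did, both lower. The mean level of Klf9 differed by -0.12 ± 0.06 (adjusted p = 0.15), which did not pass.

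Klf13, a SIN3A-recruiting family member, was the other gene whose fall in amplitude under DRF passed the threshold. The fitted amplitudes of Klf2, Klf3, Klf6, Klf11 and Klf15 were also smaller under DRF, and those of Klf4 and Klf10 larger, without passing. Klf13 lies at chr7:63886351-63938915 on the minus strand. Under NRF its levels were 118, 122, 128 and 135 CPM at ZT12 and 69.8, 56.3, 56.5 and 56.2 CPM at ZT4. Under DRF they were 112, 124, 101 and 123 CPM at ZT12 and 93.8, 131, 92.9 and 89.8 CPM at ZT0, and they were 66.0, 77.2, 66.8 and 72.4 CPM at ZT4. The evening level was therefore close to that of NRF, with overlapping groups, while the ZT0 levels all lay above the 59.3 to 65.8 CPM of the NRF mice.

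The 24-h amplitude of Klf13 fell by 0.37 ± 0.08 (adjusted p = 0.0094), from 0.52 ± 0.06 to 0.14 ± 0.06, and did not pass without replicate 2, 3 or 4 (adjusted p = 0.13, 0.21 and 0.16). Klf13 had a 12-h component of amplitude 0.23 under DRF (limma, adjusted p = 0.010), a call made for 1.20% of all genes and for none of the other 8 members. That call was lost without replicate 2, 3 or 4 (adjusted p = 0.12, 0.074 and 0.20) and on the deposited values. The DRF group means were 102 CPM at ZT0, 115 CPM at ZT12 and 88.6 CPM at ZT24, the last being close to the 88.0 and 90.9 CPM of ZT8 and ZT16. Under NRF its 12-h amplitude was 0.18 (adjusted p = 0.30), where 0.0270% of all genes passed. There 0 of 9 members passed with limma, 1 of 9 had an unadjusted p under 0.05 and 0 passed with limma-voom. Over all times the mean of Klf13 was higher under DRF by 0.17 ± 0.06 (adjusted p = 0.038), and this was lost without replicate 2, 3 or 4 (adjusted p = 0.21, 0.12 and 0.12).

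Klf15, the activator of amino acid breakdown genes, had an intermediate response. It lies at chr6:90462576-90475238 on the plus strand, and 3 E-boxes stand in its promoter window above. Under NRF its levels were 100, 106, 110 and 107 CPM at ZT8, 137, 97.4, 97.0 and 100 CPM at ZT12, and 45.9, 51.3, 47.1 and 41.3 CPM at ZT24. Under DRF the highest group was ZT16, with 112, 86.2, 81.5 and 109 CPM, and the lowest was ZT4, with 43.3, 43.8, 39.7 and 54.7 CPM. The DRF range of 2.14-fold between group means was thus near the 2.33-fold of NRF, though the cosinor amplitude was 0.36 ± 0.09 against 0.63 ± 0.08, a difference of -0.27 ± 0.12 that did not pass (adjusted p = 0.36). The fitted peak was at ZT11.14 ± 0.55 under NRF and ZT17.29 ± 0.85 under DRF. The DRF rhythm had an adjusted p of 0.29 by the MetaCycle-type test and 0.0044 by the limma cosinor.

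At ZT8 under DRF, Klf15 spread from 32.4 CPM in replicate 1 to 68.3, 104 and 66.6 CPM in the others. Replicate 1 is one of the libraries rich in epithelial and poor in adipocyte markers, and Klf9 was also at its lowest DRF level there, 64.8 CPM against 96.3, 136 and 108 CPM. Without both doubted libraries the ZT8 difference of Klf15 went from -0.75 to -0.44 and no longer passed (adjusted p = 0.094). The amplitude difference of Klf9 was -0.53 (adjusted p = 9.5e-05) and that of Klf13 was -0.37 (adjusted p = 0.0055) without them.

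Next, the regimens were compared at the same clock time, when light and dark are matched, and at the same feeding time, when each DRF group is set against the NRF group 12 h away. In the feeding-time comparison the ZT0 and ZT24 mice of a regimen were averaged, so that DRF at ZT0 there stands for both. At the same clock time 17 of 63 member differences passed (limma), where 13.8% of all gene differences did. By time, 3 of 9 members passed at ZT0 (10.5% of all genes), 1 at ZT4 (19.5%), 3 at ZT8 (16.5%), 3 at ZT12 (16.1%), 3 at ZT16 (9.97%), 2 at ZT20 (13.1%) and 2 at ZT24 (11.3%). Klf11 gave 6 of these 17, Klf13 gave 3, Klf9 and Klf15 gave 2 each and Klf2, Klf3, Klf4 and Klf6 gave 1 each. Klf10 gave 0 of 7 by limma and by limma-voom, with 2 of 7 at an unadjusted p under 0.05. At the same feeding time 11 of 54 passed, where 7.05% of all gene differences did, and these were of Klf9 (4), Klf13 (4) and Klf15 (3). By the time of the DRF group, 3 of 9 passed at ZT0 (5.51% of all genes), 3 at ZT4 (12.6%), 0 at ZT8 (1.05%), 2 at ZT12 (3.10%), 3 at ZT16 (10.4%) and 0 at ZT20 (9.70%). At ZT8 and ZT20 limma-voom also called 0 of 9, and 3 of 9 had an unadjusted p under 0.05 at each. On the deposited values the clock-time calls of Klf3 at ZT16, Klf6 at ZT8, Klf9 at ZT0 and Klf13 at ZT20 and ZT24 were lost (adjusted p = 0.056 to 0.15), as were the feeding-time calls of Klf9 at ZT12 and ZT16 (adjusted p = 0.055 and 0.051).

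Klf11 differed at every clock time but ZT0. It was lower under DRF by -1.31 ± 0.17 at ZT4 (adjusted p = 2.2e-07), -1.26 ± 0.17 at ZT8 and -1.01 ± 0.17 at ZT12, and higher by 0.66 ± 0.17 at ZT16, 0.92 ± 0.17 at ZT20 and 0.67 ± 0.17 at ZT24 (all adjusted p at most 0.0063). Without replicate 2 the ZT16 and ZT24 differences did not pass (adjusted p = 0.14 and 0.055), nor did ZT24 without replicate 4 (adjusted p = 0.080). At ZT0 the NRF mice spread from 9.82 to 23.4 CPM and the difference was 0.20 ± 0.17 (adjusted p = 0.52). At the same feeding time 0 of 6 differences passed by limma and by limma-voom, with 3 of 6 at an unadjusted p under 0.05, and the estimates ran from -0.37 to 0.03. The root mean square difference between the 6 pairs of group means was 0.98 at the same clock time and 0.30 at the same feeding time.

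Klf9, Klf13 and Klf15 matched in neither alignment. At the same clock time, Klf9 was lower under DRF at ZT12 by -0.83 ± 0.15 (adjusted p = 4.3e-05) and higher at ZT0 by 0.61 ± 0.15 (adjusted p = 0.0043). At the same feeding time, it was lower under DRF at ZT0 (with ZT24) by -0.79 ± 0.13 and at ZT4 by -0.92 ± 0.15 (adjusted p = 3.3e-05 in each), and higher at ZT12 and ZT16 by 0.46 ± 0.13 and 0.49 ± 0.15 (adjusted p = 0.033 and 0.024). These last differences were lost without replicate 2 or 4, ZT12 also without replicate 3 and ZT16 without replicate 1, and the ZT0 clock-time difference without replicate 2 (adjusted p = 0.16). Klf13 was higher under DRF at ZT0, ZT20 and ZT24 by 0.71 ± 0.12, 0.38 ± 0.12 and 0.47 ± 0.12, of which ZT20 was lost without replicate 2, 3 or 4 and ZT24 without replicate 3 or 4. Its largest difference came at the same feeding time, DRF at ZT12 against NRF at ZT0 and ZT24, at 0.87 ± 0.10 (adjusted p = 2.2e-07). In that alignment Klf13 was also higher at ZT16 by 0.59 ± 0.12 (limma, adjusted p = 0.00089). It was lower there at ZT0 (with ZT24) by -0.41 ± 0.10 and at ZT4 by -0.63 ± 0.12 (limma, adjusted p = 0.010 and 0.00046). The ZT0 call of these was lost without replicate 4 (adjusted p = 0.14). Klf15 was lower under DRF at ZT8 and ZT12 by -0.75 ± 0.21 and -0.76 ± 0.21, and at the same feeding time it was lower at ZT0 and ZT4 and higher at ZT16 by 0.76 ± 0.21 (adjusted p = 0.014). Without replicate 1 its ZT8 and ZT12 clock-time differences were -0.46 and -0.55 and did not pass (adjusted p = 0.13 and 0.079), the ZT8 difference was also lost without replicate 4 (adjusted p = 0.053), and each of its feeding-time calls was lost without at least 1 replicate number.

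The root mean square differences of these 3 genes were larger at the same feeding time than at the same clock time, at 0.59 against 0.48 for Klf9, 0.56 against 0.33 for Klf13 and 0.60 against 0.54 for Klf15. In 61.9% of the 14300 genes with a mean of at least 1 CPM, and in 5 of the 9 members, the value was smaller at the same feeding time. These are descriptions, and the alignments share the same libraries.

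**Figure D3:**
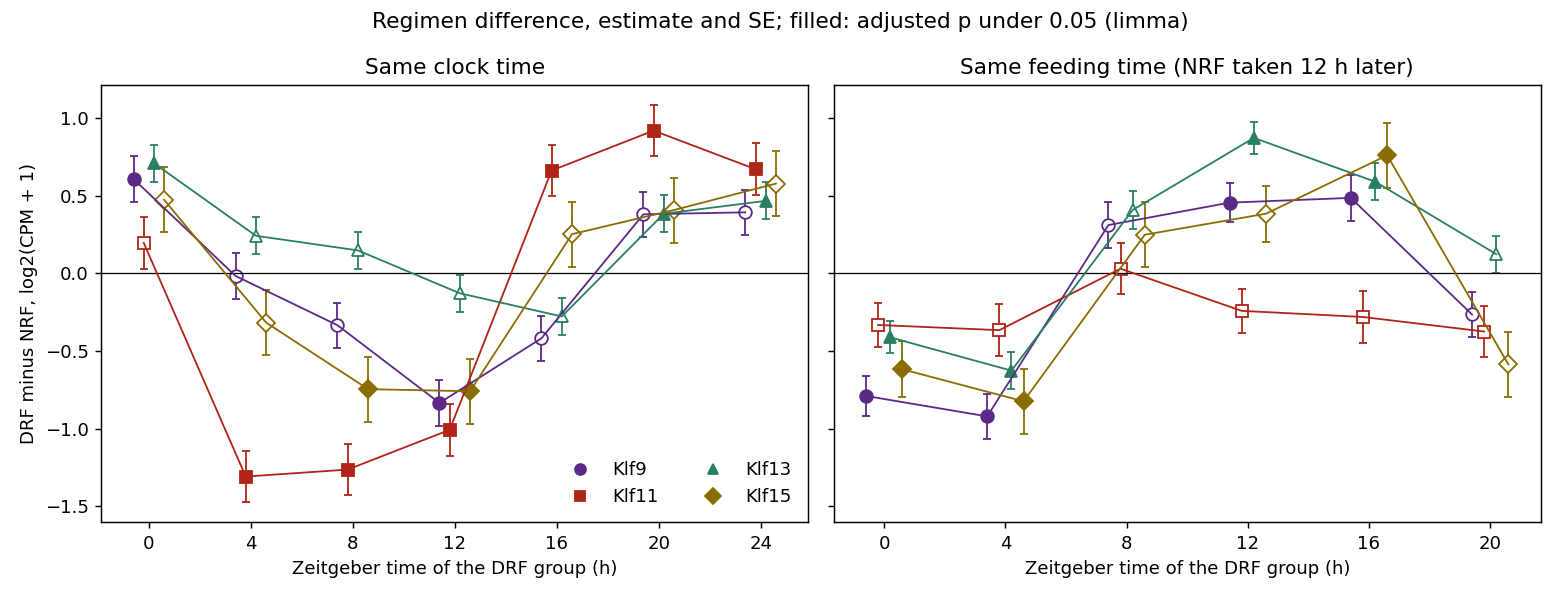
Difference DRF minus NRF (log2(CPM + 1)) of Klf9, Klf11, Klf13 and Klf15 at the same clock time (left) and the same feeding time (right), against the zeitgeber time of the DRF group (h). Points are limma estimates, bars are SE, and filled points have an adjusted p under 0.05. The Klf11 differences of up to 1.31 in size at the same clock time are all open points between -0.37 and 0.03 at the same feeding time, while Klf9, Klf13 and Klf15 have filled points in both panels.

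Klf3, the CtBP-binding repressor at chr5:64803388-64832901 on the plus strand, varied little. Under NRF it was highest at ZT16, at 89.0, 92.3, 89.1 and 72.7 CPM, and DRF mice had 56.3, 72.0, 73.6 and 65.4 CPM at that time. The difference at ZT16 was -0.36 ± 0.12 (adjusted p = 0.039), the groups overlapped in 1 pair of values, and the call was lost without replicate 1, 2 or 3 (adjusted p = 0.28, 0.15 and 0.12). Its 24-h rhythm under NRF had an amplitude of 0.16 ± 0.04 (adjusted p = 0.027) and its mean was lower under DRF by -0.13 ± 0.04 (adjusted p = 0.024). The rhythm did not pass without any 1 of the replicate numbers (adjusted p = 0.065 to 0.43), and the mean did not pass without replicate 1 or 3 (adjusted p = 0.31 and 0.16). Its highest value of all 56, 108 CPM, was in the DRF ZT0 library rich in epithelial markers. The NRF rhythm of Klf3 did not pass without the NRF libraries that match the doubted ones in number and time (adjusted p = 0.073). An opposite-strand gene, Gm20033, shares 404 exon bases with Klf3. Whether the library kit kept the strand was not known here, so reads of both genes cannot be told apart there.

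Klf6, an early activator in adipocyte formation that represses Dlk1, lies at chr13:5861482-5870394 on the plus strand. At ZT8 its levels were 66.6, 68.9, 95.4 and 85.5 CPM under NRF and 74.3, 102, 139 and 117 CPM under DRF, where replicate 1 is a doubted library. The ZT8 difference was 0.42 ± 0.15 (adjusted p = 0.039) with overlapping groups, and 0.59 (adjusted p = 0.0031) without the doubted libraries. It was lost without replicate 2, 3 or 4. The NRF rhythm had an amplitude of 0.26 ± 0.06 and a peak at ZT17.66 ± 0.77 (MetaCycle-type adjusted p = 0.0052; 0.11, 0.053 and 0.056 without replicate 2, 3 and 4), whereas the DRF amplitude was 0.01 ± 0.06. The amplitude difference of -0.26 ± 0.08 did not pass (adjusted p = 0.12). The mean of Klf6 was higher under DRF by 0.15 ± 0.06 (adjusted p = 0.040), lost without replicate 2, 3 or 4 and without DRF ZT0 replicate 2 (adjusted p = 0.055). Mean differences thus passed in 4 of 9 members (21.7% of all genes), 2 higher (11.4% of all genes) and 2 lower (10.3%). On the deposited values Klf11 alone passed, and Klf3, Klf6 and Klf13 did not (adjusted p = 0.067, 0.083 and 0.062).

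Klf2, the flow-induced factor of endothelium at chr8:72319033-72321656 on the plus strand, passed no rhythm test within a regimen but differed in rhythm between them (adjusted p = 0.013). The difference lay mainly at ZT16, where NRF mice had 88.9, 103, 81.4 and 73.5 CPM and DRF mice 40.2, 50.5, 42.0 and 51.7 CPM, with no overlap. At that time Klf2 was lower under DRF by -0.89 ± 0.19 (adjusted p = 0.0010), and at the other 6 clock times it did not pass. The 7 endothelial markers summed to 737 to 1132 CPM under NRF and 536 to 1110 CPM under DRF. The lowest sum was that of DRF ZT0 replicate 4, a doubted library. At ZT16 the sums were 923 ± 49.3 CPM under NRF and 909 ± 79.2 CPM under DRF (SD). In the mean over all times, 2 of the 7 markers were lower under DRF (limma), where 10.3% of all genes were.

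Klf4, the epithelial and vascular activator at chr4:55527143-55532466 on the minus strand, differed at ZT0. NRF mice had 32.2, 45.7, 58.8 and 39.0 CPM and DRF mice 49.4, 73.6, 61.9 and 123 CPM, of which the 123 CPM is the library with 1309 CPM of epithelial markers. The difference was 0.75 ± 0.18 (adjusted p = 0.0040), and without the doubted libraries it was 0.50 (adjusted p = 0.045). Without replicate 4 in both regimens it was 0.45 and did not pass (adjusted p = 0.20). At ZT24, the same clock time in other mice, the Klf4 difference was 0.06 ± 0.18 and did not pass (limma, adjusted p = 0.90). The other doubted library, ZT8 replicate 1, had 37.4 CPM of Klf4, the lowest DRF value. The rhythm of Klf4 differed between regimens with these libraries (adjusted p = 0.0025) and without them (adjusted p = 0.0024), with fitted amplitudes of 0.19 ± 0.08 under NRF and 0.29 ± 0.07 under DRF. The amplitude difference of 0.10 ± 0.10 did not pass, and it was 0.03 without the doubted libraries.

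**Figure D4:**
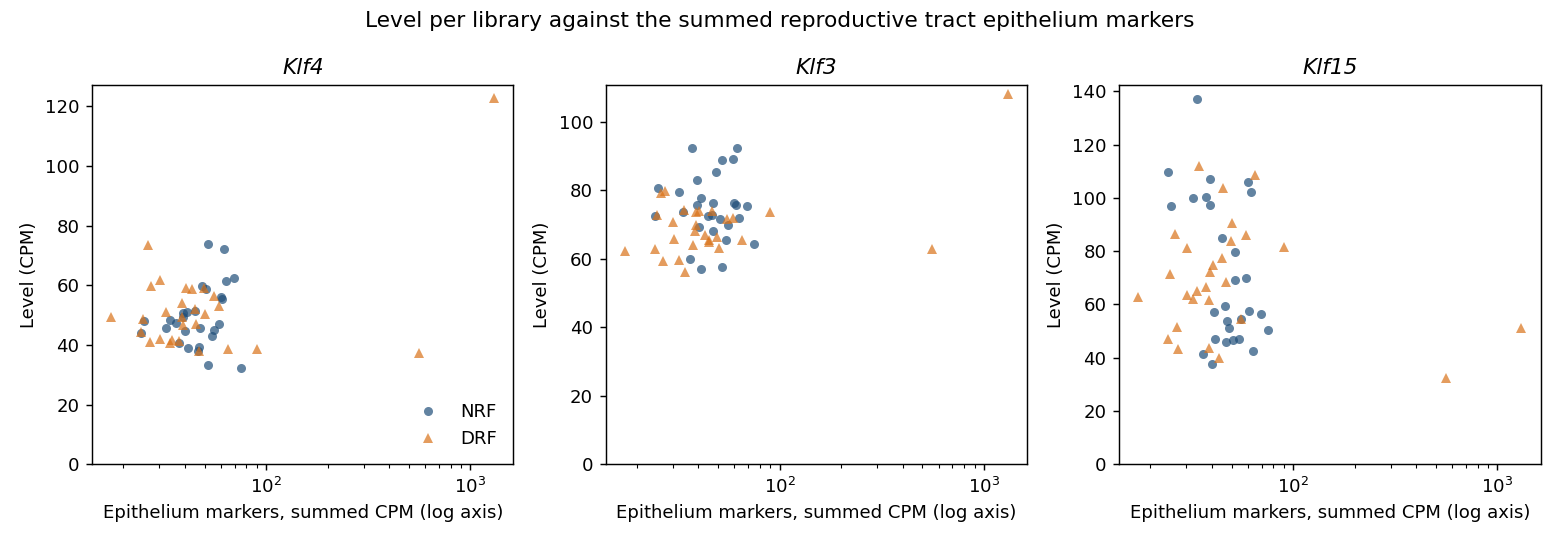
Level (CPM, axis from 0) of Klf4, Klf3 and Klf15 in each of 56 libraries against the summed CPM of 7 reproductive tract epithelium markers (log axis), NRF as blue circles and DRF as orange triangles. The library at 1309 CPM of markers has the highest Klf4 (123 CPM) and Klf3 (108 CPM) of all, and the library at 559 CPM has the lowest Klf15 (32.4 CPM).

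Klf10, a TGF-beta and clock-output repressor at chr15:38291463-38300706 on the minus strand, was flat under NRF, with group means from 38.6 to 47.6 CPM. Under DRF it was 32.7, 119, 65.3 and 67.4 CPM at ZT0 and 30.1, 27.4, 28.4 and 27.9 CPM at ZT8. Its rhythm difference had an adjusted p of 0.047, and 0.084 without DRF ZT0 replicate 2, the 119 CPM library, as well as 0.084 without the doubted libraries. The DRF ZT8 mice all lay below the NRF mice at ZT8 (55.3, 49.2, 44.2 and 41.8 CPM), and that difference of -0.72 ± 0.26 did not pass (adjusted p = 0.053).

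ZT24 and ZT0 are the same clock time in different mice. By limma, 0 of 18 member differences passed between them, as by limma-voom, where 0.102% of all gene differences passed (0.154% under NRF and 0.0501% under DRF). At an unadjusted p under 0.05 there were 5 of 18, and the share of all genes at that looser level is not given here. Under DRF the ZT24 minus ZT0 values of Klf10, Klf2 and Klf4 were -0.70 ± 0.26, -0.68 ± 0.19 and -0.57 ± 0.18 and did not pass (limma, adjusted p = 0.35, 0.19 and 0.27). Without the doubted libraries that of Klf4 was -0.32, and without DRF ZT0 replicate 2 that of Klf10 was -0.41. The 9 immediate early genes, which respond to handling and stress within minutes, summed to 174, 221, 353 and 333 CPM in the DRF ZT0 mice (the last is the doubted library) and to 117 to 134 CPM in the DRF ZT24 mice. Their part in the ZT0 values of these 3 members was not tested.

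Other genes of the family and its pathways came from lists. Among the 7 other KLF genes measured (Klf17 was not in the table), Klf5, Klf12 and Klf16 had an NRF rhythm by the MetaCycle-type test (the limma cosinor did not call Klf5, adjusted p = 0.45), where 24.5% of all genes passed, and under DRF 0 of 7 passed (12.9% of all genes), 1 at an unadjusted p under 0.05 and 2 by the limma cosinor. The rhythm differed in 2 of 7, Klf14 and Klf16 (36.0% of all genes). Klf16, a further SIN3A-recruiting member, was the clearest (14.4 CPM on average), with an amplitude of 0.46 under NRF peaking at ZT7.36 and 0.22 under DRF, and its rhythm difference had an adjusted p of 3.4e-05. Klf7 and Klf8, at 19.2 and 1.47 CPM, did not pass the MetaCycle-type test in either regimen, while Klf7 passed the limma cosinor under NRF (adjusted p = 0.036). Of the 6 SP genes measured, relatives that bind the same GC boxes, 2 were lower under DRF (limma, 10.3% of all genes). These were Sp1 and Sp4, by -0.11 ± 0.03 and -0.17 ± 0.06, while Sp2 and Sp3 differed by 0.06 ± 0.05 and -0.07 ± 0.03 without passing. By the MetaCycle-type test 1 of 6 was rhythmic under NRF (24.5% of all genes) and 0 of 6 under DRF (12.9%). Under DRF 1 of 6 had an unadjusted p under 0.05 and 1 passed the limma cosinor. The rhythm differed in 3 of the 6 SP genes (36.0% of all genes). The median mean difference was -0.07 in the SP list, 0.03 in the other KLF genes and -0.11 in the 9 members, against -0.00037 over all genes.

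Of 12 corepressors and coactivators, 5 were rhythmic under NRF (24.5% of all genes), 3 under DRF (12.9%) and 6 differed in rhythm (36.0%). Sin3a, the scaffold that binds the repressor members, peaked at ZT6.99 under NRF and ZT18.77 under DRF, with amplitudes of 0.22 and 0.21, and was rhythmic under both (adjusted p = 3.8e-05 and 0.0045). By the MetaCycle-type test Hdac1 was rhythmic under DRF (adjusted p = 0.027), and Hdac2 and Sin3b passed the MetaCycle-type test under neither regimen. The limma cosinor called 7 of the 12 under DRF, and it called Hdac1 and Hdac2 under NRF (adjusted p = 0.0035 and 0.026) and under DRF (adjusted p = 1.1e-05 and 0.0086). No member of this list had a mean difference past the threshold (0 of 12 by limma, 0 at an unadjusted p under 0.05).

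Glucocorticoid-responsive genes were rhythmic in 5 of 7 cases under NRF (24.5% of all genes) and 1 of 7 under DRF (12.9%; 2 of 7, Fkbp5 and Zbtb16, by the limma cosinor), and 5 of 7 differed in rhythm (36.0%). Tsc22d3 fell from an amplitude of 1.14 to 0.27 and Per1 from 1.20 to 0.24. Fkbp5, a cochaperone of the receptor, was rhythmic under both regimens, with amplitudes of 1.32 under NRF and 1.16 under DRF and peaks at ZT15.05 and ZT16.79. Its rhythm differed between them (adjusted p = 0.047), and its mean was higher under DRF by 0.56 ± 0.15 (adjusted p = 0.0035). Zbtb16 had amplitudes of 0.81 and 0.87 and peaks at ZT10.97 and ZT17.33. The receptor gene Nr3c1 was lower under DRF by -0.17 ± 0.05 (adjusted p = 0.0090).

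Of 5 genes of amino acid breakdown tied to KLF15, 3 were rhythmic under NRF (24.5% of all genes), 1 under DRF (12.9%) and 3 differed in rhythm (36.0%). Bcat2 was lower under DRF by -0.26 ± 0.07 (adjusted p = 0.0052) and Gpt was higher by 0.43 ± 0.11 (adjusted p = 0.0019). Prodh was rhythmic under both regimens and peaked at ZT17.54 and ZT18.85. Of 6 adipogenic genes reported as KLF targets, Cebpa and Slc2a4 had NRF rhythms, a share near the 24.5% of all genes, and under DRF 0 of 6 passed (12.9% of all genes), 1 at an unadjusted p under 0.05 and 2 by the limma cosinor. Cebpa peaked at ZT8.57 under NRF with an amplitude of 0.53. In the mean, 1 of the 6 was lower under DRF (limma, 10.3% of all genes) and 0 were higher (11.4%). This was Dlk1, reported as repressed by KLF6 and at 2.96 CPM on average, by -0.27 ± 0.09 (adjusted p = 0.030). Whether it is tied to the level of Klf6 was not tested. Pparg and Cebpb did not pass the MetaCycle-type test in either regimen or the test of the mean, while Cebpb passed the limma cosinor under DRF (adjusted p = 0.027). Of the clock genes, 4 of 5 were rhythmic under NRF (24.5% of all genes) and 2 of 5 under DRF (12.9%). The median amplitude of the 5 went from 2.21 to 0.55, that of the 9 members from 0.26 to 0.18.

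The members were also compared by the shape of their 14 group means, as a description over groups that share libraries with the tests above. Klf9 was closest to Klf15 among the 9 (r = 0.89) and to Klf13 (r = 0.85), while Klf11 stood at 0.67 with Klf15 and 0.10 with Klf13. Klf4 and Klf10 were at 0.81 and Klf2 and Klf3 at 0.71. Among the 11148 genes with a mean of at least 5 CPM, the genes most like Klf9 were Mertk (r = 0.96), Per3 (r = 0.95) and 2010016I18Rik (r = 0.93). Klf11 was most like Tbc1d17 (r = 0.96), Gm37305 (r = 0.95) and Nub1 (r = 0.95). Klf13 was most like Wee1, Adgrg1 and Sh2d3c (r = 0.91 in each) and Klf15 most like Wdr81, Dedd2 and Polr2a (r = 0.94, 0.92 and 0.91). Klf2 came with Csnk1e, Znrf1 and Smagp (r = 0.88, 0.88 and 0.82), Klf3 with Tmem170b, Kansl3 and Nrbp2 (r = 0.93, 0.92 and 0.91) and Klf6 with Kcna5, Dll4 and Baz1a (r = 0.89, 0.88 and 0.86). Klf4 came with Fnbp1l, Zdhhc14 and Klf10 (r = 0.88, 0.84 and 0.81), and Klf10 with Zc3h12a, Klf4 and Cacfd1 (r = 0.87, 0.81 and 0.81).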

How the data were processed

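The authors sequenced polyA RNA of VAT, aligned reads with HISAT2 2.0.5 to mm10 and counted them with featureCounts 1.5.0-p3, per the submitters' processing notes. They deposited a score per gene and library. By its values this score is log2(CPM + 1) divided by exon length and rescaled per library. Reads were recovered from the steps between deposited scores. Of 1262086 values, each up to 10000 reads, 99.9998% came out whole to a tolerance of 0.02 (4% by chance). Of the 25939 genes, 25935 were used on the log scale; Pcx, Scd1, mt-Cytb and mt-Nd5 were unresolved. The limma fits used log2(CPM + 1) from these reads, and the pseudocount of 1 understates changes of low genes.

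Rhythms were tested on the deposited score by a test of the MetaCycle type in Python 3.11.15, which joins the p-values of JTK_CYCLE and a Lomb-Scargle periodogram (Fisher). Mean, rhythm and time point differences were tested with limma 3.58.1 (R 4.3.3) and amplitude and phase by Wald tests, as in CircaCompare. P-values were two-sided and Benjamini-Hochberg adjusted over all genes, with a threshold of 0.05. On simulated data, limma found 195 of 200 changed means and 178 of 200 changed rhythms among 25935 genes. The planted changes were larger than each mean difference of the members. They were also larger than the rhythm differences of Klf2, Klf3, Klf4, Klf6, Klf10 and Klf13, and no simulated library stood apart. These counts therefore do not give the power for such differences.

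The 9 members and the gene lists were chosen with earlier results of these data known. All members are named; lists are given as counts, with values for the first genes in written order of at least 1 CPM and those a result turns on. Dlk1, Klf16, Prodh and Nr3c1 were named for their role or value. The genes most alike are the 3 with the highest Pearson r. Coordinates are of GRCm38. Of the lymphocyte markers, 1 of 5 had a lower mean under DRF, where 10.3% of all genes did. Skeletal muscle (0 of 3 by limma, 0 at an unadjusted p under 0.05), liver (0 of 3, likewise 0) and reproductive tract epithelium (0 of 7, likewise 0) had no call in the mean. Of 6 adipocyte markers, 1 was higher (11.4% of all genes) and 1 lower (10.3%). Replicate numbers name different mice, and the check of whether they pair samples is given with the alternatives.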

Additional observations from a re-analysis of the deposited data

Results flagged for a closer look

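With all libraries used, the 24-h rhythm differed between the regimens in 9 of the 9 members by a test of the difference itself (limma). In the alternatives tried, that call was lost 7 times for Klf10, 5 times for Klf6 and 2 times each for Klf2 and Klf3. For Klf10 the adjusted p was 0.084 without DRF ZT0 replicate 2 and 0.070 without NRF ZT24 replicate 4. The values that follow use all libraries. The adjusted p was 1.39e-14 for Klf11, 1.84e-08 for Klf9, 2.9e-06 for Klf15, 0.000336 for Klf13, 0.00254 for Klf4, 0.013 for Klf3, 0.0131 for Klf2, 0.0372 for Klf6 and 0.047 for Klf10, where 36.0% of all genes passed.

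In 10 of 126 groups of 4 mice, 1 mouse lay far from the other 3 on the log scale, and chance marks about 1 group in 20. High mice were Klf11 in NRF ZT24 replicate 1 (14.1 CPM), Klf13 in DRF ZT0 replicate 2 (131 CPM), NRF ZT0 replicate 1 (65.8 CPM) and NRF ZT4 replicate 1 (69.8 CPM), Klf15 in NRF ZT12 replicate 1 (137 CPM) and Klf6 in NRF ZT24 replicate 2 (105 CPM). Low mice were Klf10 in NRF ZT20 replicate 4 (22.8 CPM), Klf3 in NRF ZT16 replicate 4 (72.7 CPM), Klf4 in NRF ZT12 replicate 4 (40.8 CPM) and Klf6 in DRF ZT4 replicate 2 (93.7 CPM).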

How the results depend on the processing

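The phase shift of Klf11 and its DRF rhythm passed under each alternative tried. Under DRF the members called rhythmic were 2 without the ZT24 libraries (Klf4 and Klf11) and 4 by the limma cosinor. Mean differences passed in 1 member on the deposited values and in 0 to 3 with 1 replicate number left out. Amplitude differences passed in 0 to 2, clock-time differences in 11 to 20, feeding-time differences in 6 to 11 and 12-h components in 0 to 1 with 1 number left out, and 12-h components in 0 on the deposited values. That fewer mice were tested holds for each replicate left out; otherwise the cause was not tested. Without replicate 4 the amplitude differences of Klf9 and Klf13 had adjusted p-values of 0.065 and 0.16. Signs turned for differences that had not passed: the mean of Klf4 (0.052 without ZT24, 0.027 on the deposited values, -0.049 to 0.019 with 1 replicate number left out), the mean of Klf15 (-0.16 to 0.012), the amplitude difference of Klf2 (0.041 without ZT24, -0.14 to 0.025) and that of Klf4 (-0.013 to 0.21). Same-numbered libraries had a median r of 0.033 over 364 pairs (-0.66 to 0.56, with 137 over 0.1), against -0.010 for other numbers. Of the 4 numbers to match, the own number was best in 29.95%. The check shows no clear pairing and does not settle whether a weak one is present. With the replicate block, 4 means, 9 rhythm differences, 3 amplitude differences (Klf6 added, adjusted p = 0.040), 19 clock-time and 12 feeding-time differences passed. Without the 2 DRF libraries rich in epithelial markers, 22 clock-time and 15 feeding-time differences passed. The alternatives without DRF ZT0 replicate 2 or NRF ZT24 replicate 4, those of the ZT24 to ZT0 contrast and the deposited values for single times and 12-h components were chosen after seeing the data. Klf11 had the fewest reads, with 239 in its lowest library.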
